A study of Mus musculus with 10 samples.

Results

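Lifr, Il6st, Jak1, Stat3 and Socs3 are the core of the signalling route by which leukemia inhibitory factor (LIF) acts on mouse embryonic stem (ES) cells. They were chosen by name, by taking every probe that the array assigns to these 5 genes, and they make up 5 of the 20663 genes tested, with 10 probes in all. Each level came from J1 cells, a mouse ES cell line, collected 96 hours (day 4) after transfection with small interfering RNA (siRNA). The cells received siRNA against Ino80, Ino80b, Ino80c or Ino80e, each a subunit of the INO80 chromatin remodelling complex, or a non-targeting siRNA (NT). There were 2 arrays in each of these 5 groups, described in the series as biological replicates. Nothing further is said of separate cultures, so p-values measure only the spread between these samples. The cells of all 5 groups were grown in ESGRO medium and moved to M15 medium for the transfection. No source used here gives the LIF content of either medium.

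LIF binds the LIF receptor, encoded by Lifr, which then pairs with the signal-transducing chain gp130, encoded by Il6st. Gp130 is shared by the cytokines of the interleukin 6 family. The paired receptor activates the tyrosine kinase JAK1, and JAK1 phosphorylates the transcription factor STAT3, which enters the nucleus. In mouse ES cells STAT3 switches on genes that hold the naive state, among them Klf4, Gbx2 and Tfcp2l1, and it also induces Socs3, whose product binds gp130 and JAKs and damps the signal. These arrays measured RNA only, and phosphorylation of STAT3 was not measured.

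Of the 5 genes, the 2 receptor chains were lower in the Ino80 knockdown than in NT, and no member passed the test in any other comparison. Jak1, Stat3 and Socs3, the kinase, the transcription factor and the inhibitor, did not pass in the Ino80 knockdown. In the Ino80 knockdown 2 of 5 members were called at an adjusted p under 0.05, beside 12.2% of all genes tested. None of the 5 was called in the Ino80b knockdown (6.41% of all genes), in the Ino80c knockdown (6.28%) or in the Ino80e knockdown (0%). In the last of these 5899 genes had an unadjusted p under 0.05 in limma, and 5102 were called with normexp background correction. These shares rest on few arrays: leaving out 1 array gave 560 to 3296 genes called in Ino80 (2531 with all arrays), 0 to 2856 in Ino80b (1325) and 0 to 3142 in Ino80c (1297). The lowest of each came without Ino80 replicate 2, Ino80b replicate 1 and Ino80c replicate 2, and the highest without NT replicate 1.

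The arrays were read in 1 colour, and each level below is log2 signal relative to the 75th percentile of its array. An array had 27334 to 32512 probes well above background, and the number of arrays limits the precision. The siRNA targets stood at 43.6% of NT for Ino80, 24.9% for Ino80b, 19.7% for Ino80c and 43.4% for Ino80e, each in its own knockdown, the last not past the threshold (adjusted p = 0.0815). The Ino80 and Ino80b arrays shared a slide, the Ino80c and Ino80e arrays shared another, and the NT arrays were alone on the third. In every comparison with NT, slide and siRNA therefore cannot be told apart, and only Ino80 against Ino80b and Ino80c against Ino80e were compared within a slide. The 4 knockdowns also share the same NT arrays, so a deviation of NT enters all 4 differences. The median of all genes was above NT by 0.17 in Ino80, 0.13 in Ino80b, 0.25 in Ino80c and 0.19 in Ino80e, and under other scalings it ranged from 0.00 to 0.25.

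Lifr was measured by 4 probes, and the call in the Ino80 knockdown came from 1 of them. Their positions on build mm7 follow the gene from its 5′ side to its 3′ side, on the plus strand of chromosome 15. The Lifr result depends on which of the 4 is read. Sequences are shown for the first 3, which hold a reading frame without a stop codon, and not for probe 4. Any of the 3 forward frames counted and no annotation of mm7 was used, so this does not show which probes lie in coding sequence. Probe 1, the brightest, lies at chr15:7011508-7012314, and its 60 bases span 807 bases of genome in the array's own coordinates. Probe 2 lies at chr15:7012421-7012480, probe 3 at chr15:7017869-7017928 and probe 4 at chr15:7017960-7018019.
Lifr probe 1: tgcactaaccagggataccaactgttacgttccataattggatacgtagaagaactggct
Lifr probe 2: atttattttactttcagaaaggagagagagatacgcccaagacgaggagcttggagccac
Lifr probe 3: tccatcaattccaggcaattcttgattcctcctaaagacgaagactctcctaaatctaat

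On probe 1, Lifr stood at -1.42 and -1.63 on the Ino80 arrays, -1.25 and -1.11 on the Ino80b arrays, -0.82 and -1.0 on the Ino80c arrays, -0.63 and -0.69 on the Ino80e arrays, and -0.86 and -0.85 on the NT arrays. The Ino80 arrays were the lowest of all 10, the Ino80b arrays came next, and the Ino80e arrays were the highest. Lifr fell in the Ino80 knockdown by 0.67 on the log2 scale (SE 0.14, adjusted p = 0.0244 in limma), to 62.9% of NT (95% interval 50.4% to 78.4%). Relative to the median of all genes the difference was -0.84, and 7.13% of genes lay further down. In the Ino80b knockdown the difference was -0.33 ± 0.14 (SE, adjusted p = 0.163), with no overlap between the arrays. It was -0.05 ± 0.14 in the Ino80c knockdown (adjusted p = 0.799), where the arrays overlapped NT, and 0.20 ± 0.14 in the Ino80e knockdown (adjusted p = 0.368). In the authors' deposited table Lifr passed in Ino80b as well, at -0.41 (adjusted p = 0.0391), and the difference in Ino80e was -0.03, on the other side of 0. From low to high the means on probe 1 ran Ino80, Ino80b, Ino80c, NT and Ino80e, and of these neighbours only Ino80c and NT overlapped.

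The other probes of Lifr did not pass the test in the Ino80 knockdown. Probe 2 gave -0.32 ± 0.25 (SE, adjusted p = 0.428), probe 3 gave -0.28 ± 0.25 (adjusted p = 0.472) and probe 4 gave 0.05 ± 0.22 (adjusted p = 0.889). The 2 Ino80 arrays and the 2 NT arrays overlapped on each of probes 2, 3 and 4. These 3 probes do not weigh the same as evidence. Probe 2 was dim, between -4.51 and -3.39 over the 10 arrays. Probes 3 and 4 lie beside each other on the genome, so they may not be separate readings. With the mean of the 4 probes in place of the brightest, the difference was -0.30 and the call was lost (adjusted p = 0.302). That mean gives the dim probe 2 the same weight as probe 1. The fall of Lifr RNA in the Ino80 knockdown therefore rests on 1 of 4 probes, the brightest, and the other 3 differ in how much they can say.

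**Figure D1:**
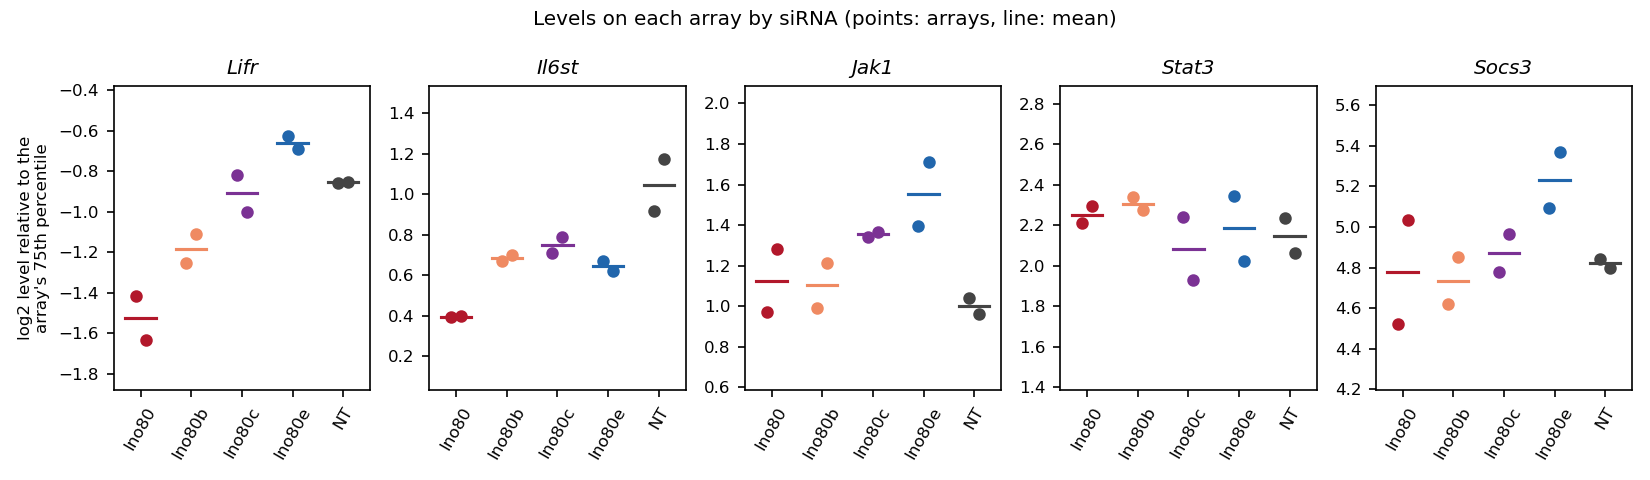
Log2 level of each of the 5 genes on each array, relative to the 75th percentile of the array, by siRNA. Points are arrays, lines are means of 2 arrays, and every panel spans 1.5 log2 units. The Ino80 arrays are the lowest for Lifr and Il6st, whereas for Stat3 the group means differ by less than the gap between the 2 Ino80e arrays.

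Il6st, the gp130 chain, has 1 probe, at chr13:109662276-109662335 on the plus strand of mm7, so no other probe bears on it. It stood at 0.39 and 0.40 on the Ino80 arrays, 0.67 and 0.70 on the Ino80b arrays, 0.71 and 0.79 on the Ino80c arrays, 0.67 and 0.62 on the Ino80e arrays, and 0.92 and 1.17 on the NT arrays. All 8 knockdown arrays lay under both NT arrays, and the Ino80 arrays lay under the rest. Il6st fell in the Ino80 knockdown by 0.65 on the log2 scale (SE 0.13, adjusted p = 0.0229), to 63.8% of NT (95% interval 51.7% to 78.6%). Relative to the median of all genes the difference was -0.82. It was -0.36 ± 0.13 in the Ino80b knockdown (SE, adjusted p = 0.122), -0.30 ± 0.13 in the Ino80c knockdown (adjusted p = 0.171) and -0.40 ± 0.13 in the Ino80e knockdown (adjusted p = 0.112), none of which passed. In the authors' deposited table, which scales the arrays in another way, these 3 differences were -0.50, -0.48 and -0.58 and each passed (adjusted p = 0.036, 0.045 and 0.04). From low to high the means ran Ino80, Ino80e, Ino80b, Ino80c and NT. Ino80e and Ino80b differed by 0.04, and Ino80b and Ino80c by 0.06, which is no more than the spread between the arrays of Ino80c.

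The calls of both receptor chains lie close to the threshold, and several single arrays decide them. Both were lost without NT replicate 2 (adjusted p = 0.0811 for Lifr and 0.0764 for Il6st) and without Ino80 replicate 2 (0.115 and 0.0922). Lifr was also lost without either Ino80e array (0.0516), and Il6st without Ino80 replicate 1 (0.0611) or without either Ino80b array (0.05, just over the threshold). The direction stayed the same each time, with differences between -0.78 and -0.56 for Lifr on probe 1 and between -0.78 and -0.52 for Il6st. Within the shared slide, Lifr differed by -0.34 ± 0.14 between Ino80 and Ino80b (adjusted p = 0.525), and Il6st by -0.29 ± 0.13 (adjusted p = 0.567). Neither passed, in a comparison where 0.0678% of all genes did, and with the mean of its 4 probes Lifr gave 0.05 there.

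**Figure D2:**
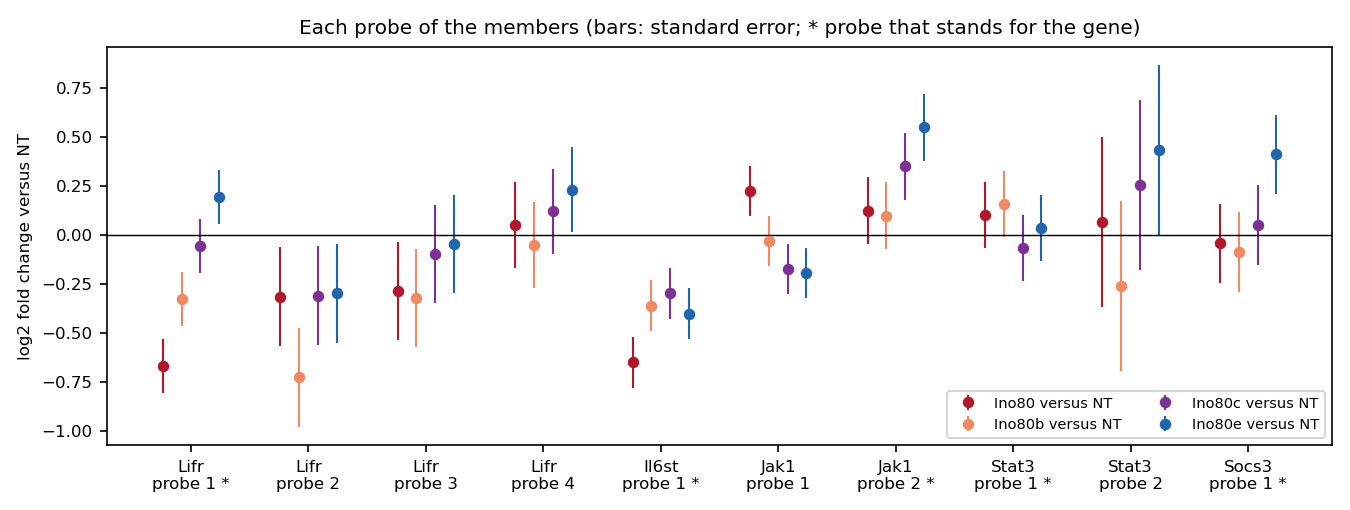
Log2 fold change versus NT on every probe of the 5 genes (points) with its standard error (bars), by knockdown. Probes are numbered from the 5′ side of the gene and an asterisk marks the probe that stands for the gene. Lifr gives -0.67 on probe 1 and 0.05 on probe 4 in the Ino80 knockdown, and Jak1 has opposite signs on its 2 probes in the Ino80c and Ino80e knockdowns.

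In a culture dish, fewer cells of a type and less RNA per cell cannot be told apart, and markers of several cell types moved with the receptor genes. Of 10 markers of primitive endoderm, a cell type that ES cultures can form, 10 fell in the Ino80 knockdown, 8 in Ino80b, 1 in Ino80c and 0 in Ino80e. Beside these stand 4.76%, 2.67%, 1.59% and 0% of all genes called lower, so the 0 in Ino80e is no result about these markers. Their summed level was 1.97 to 2.00 times the 75th percentile on the Ino80 arrays, 3.19 to 3.48 on Ino80b, 4.98 to 5.68 on Ino80c, 8.13 to 9.31 on Ino80e and 6.61 to 7.41 on NT. The rank of the groups by this sum, from Ino80 to Ino80b, Ino80c, NT and Ino80e, was also that of Lifr on probe 1. With the mean of its 4 probes Lifr in Ino80b (-0.36 from NT) lay under Ino80 (-0.30), and Il6st ranked the groups in another order, as given above. Pdgfra, which marks this lineage, was not well above background on either Ino80 array. Foxa2, another of the markers, went the other way in Ino80b. It stood at -0.28 and -0.70 there against -1.37 and -2.31 in NT, and was not called. The part of these cells in the Lifr and Il6st results was not tested.

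Other cell types showed as follows. Of 9 ES cell markers tested, all well above background on all 10 arrays, 3 fell in Ino80, 3 in Ino80b, 2 in Ino80c and 0 in Ino80e, beside 4.76%, 2.67%, 1.59% and 0% of all genes called lower. In Ino80 they included Nanog, by 1.35, and Esrrb, by 1.61 on the log2 scale, whereas Sox2, Klf2 and Tdgf1 overlapped NT. The summed level of all 9 was 492 to 584 on the Ino80 arrays against 679 to 719 on NT. This sum rests mostly on the brightest markers, Dppa5a, Zfp42 and Klf2, and not on Nanog and Esrrb. Of 7 markers of primed epiblast, the later pluripotent state, 5 rose in Ino80 and 5 in Ino80b, 3 in Ino80c and 0 in Ino80e, beside 7.49%, 3.74%, 4.69% and 0% of all genes called higher. The sums of the 7 were 109 to 113 on the Ino80 arrays against 45.1 to 54.5 on NT, and rest mostly on Pou3f1 and Dnmt3b. Zic2 and Sox3 overlapped NT in Ino80. Of 13 fibroblast markers 5 rose in Ino80, 2 in Ino80b, 3 in Ino80c and 0 in Ino80e (sums of 38.6 to 39.9 in Ino80 against 31.1 to 32.9 in NT). The collagen-binding protein gene Dcn rose by 2.30 in Ino80, at a dim level of -2.95 and -2.82 against -5.23 and -5.13 in NT. The other 8 were not called in Ino80. The sums rest mostly on Tagln and Acta2. Tagln stood at 4.21 and 4.26 in Ino80 against 2.67 and 2.95 in NT. Acta2, not called, lay lower in Ino80, at 4.21 and 3.99 against 4.61 and 4.38. Of 7 trophectoderm markers 4 rose in Ino80, 0 in Ino80b, 1 in Ino80c and 0 in Ino80e (sums of 48.9 to 65.1 in Ino80 against 20.2 to 25.0 in NT). These sums rest mostly on the keratin genes Krt8 and Krt18. Eomes, Hand1 and Tfap2c overlapped NT in Ino80. The part of any of these cell types in the results on the 5 genes was not tested.

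**Figure D3:**
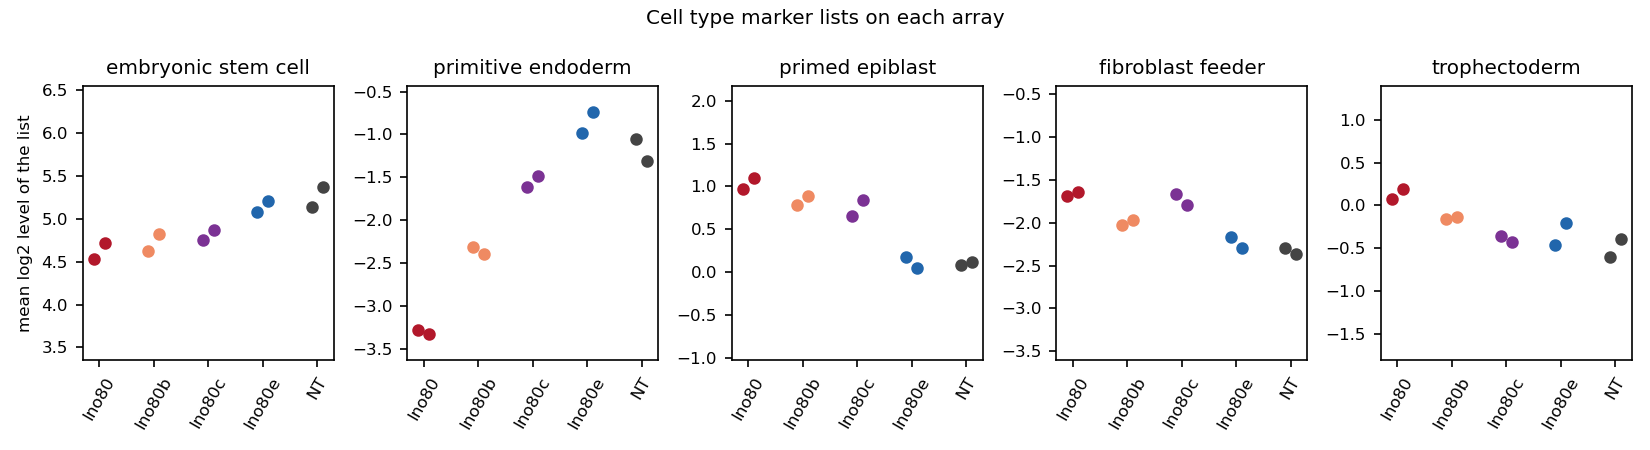
Mean log2 level of each cell type marker list on each array, by siRNA, with panels of equal height. Primitive endoderm markers lie lowest on the 2 Ino80 arrays, and primed epiblast markers lie higher in Ino80, Ino80b and Ino80c than in NT.

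Jak1, the kinase next to the receptor, has 2 probes on the minus strand of chromosome 4, and they did not move together. The brighter one by its mean over the 10 arrays, which stands for the gene, lies at chr4:100528928-100528987. On it Jak1 stood at 0.97 and 1.28 in Ino80, 0.99 and 1.21 in Ino80b, 1.34 and 1.37 in Ino80c, 1.40 and 1.71 in Ino80e, and 1.04 and 0.96 in NT. The Ino80c and Ino80e arrays, which share a slide, lay above the NT arrays, while the other 2 knockdowns overlapped NT. The differences from NT were 0.12 ± 0.17 in Ino80 (SE, adjusted p = 0.646), 0.10 ± 0.17 in Ino80b (0.733), 0.35 ± 0.17 in Ino80c (0.203) and 0.55 ± 0.17 in Ino80e (0.106). On the other probe, at chr4:100529628-100529687, they were 0.22, -0.03, -0.17 and -0.19, with standard errors of 0.13. A direction for Jak1 in the Ino80c and Ino80e knockdowns thus depends on the probe, and neither probe passed the test there. The other probe was the brighter on the NT arrays (1.16 and 1.21) and on the Ino80 arrays (1.37 and 1.45). The choice of the probe that stands for Jak1 therefore came through the Ino80c and Ino80e arrays, where that probe lay high. By rank of the means on the brighter probe, from Ino80e to Ino80c, Ino80, Ino80b and NT, neither Ino80e and Ino80c nor Ino80c and Ino80 overlapped, while Ino80 overlapped Ino80b and Ino80b overlapped NT.

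Stat3, the transcription factor of the route, has a probe printed in 10 spots per array, so its technical error within an array can be seen. That probe lies at chr11:100997323-100997382 on the minus strand, and its spots had an SD of 0.02 to 0.03 within an array. Stat3 stood at 2.21 and 2.30 in Ino80, 2.34 and 2.27 in Ino80b, 2.24 and 1.93 in Ino80c, 2.35 and 2.02 in Ino80e, and 2.24 and 2.06 in NT. The groups overlapped except that Ino80b lay above Ino80c and NT, and the gap between the 2 arrays of Ino80c or of Ino80e was larger than any difference between group means. The differences from NT were 0.10 (95% interval -0.29 to 0.50) in Ino80, 0.16 (-0.24 to 0.55) in Ino80b, -0.07 (-0.46 to 0.33) in Ino80c and 0.04 (-0.36 to 0.43) in Ino80e, with adjusted p between 0.569 and 0.907. The second probe, at chr11:100994187-100994246, was dim, between -5.28 and -3.93, and gave 0.07, -0.26, 0.26 and 0.43 in the same order, with a standard error of 0.43.

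Socs3, the feedback inhibitor, has 1 probe, at chr11:118075211-118075270 on the minus strand. Socs3 stood at 4.52 and 5.04 in Ino80, 4.62 and 4.85 in Ino80b, 4.78 and 4.96 in Ino80c, 5.09 and 5.37 in Ino80e, and 4.84 and 4.80 in NT. The Ino80e arrays were the highest of the 10, and the 2 Ino80 arrays enclosed both NT arrays. The differences from NT were -0.04 (95% interval -0.52 to 0.44) in Ino80, -0.09 (-0.56 to 0.39) in Ino80b, 0.05 (-0.43 to 0.53) in Ino80c and 0.41 (-0.07 to 0.89) in Ino80e, with adjusted p of 0.905, 0.815, 0.878 and 0.225. Socs3 is known as a direct target that follows STAT3 activity, and its RNA did not pass the test in the Ino80 knockdown, where Lifr and Il6st did. Within the shared slide, Ino80c lay 0.36 under Ino80e (SE 0.20, adjusted p = 0.615), in a comparison where 0.0339% of all genes were called and no member was.

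**Figure D4:**
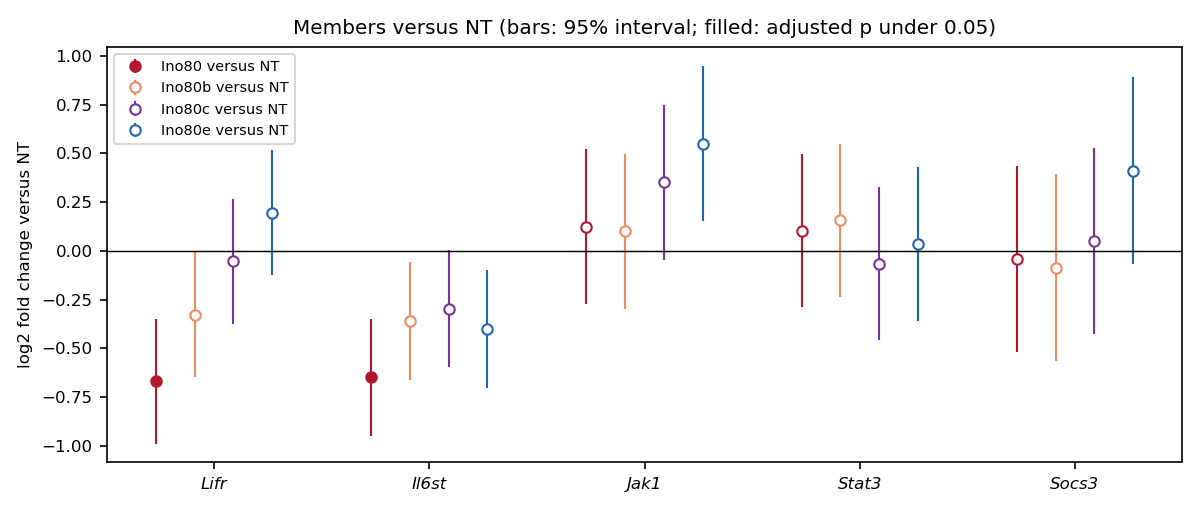
Log2 fold change versus NT of the 5 genes (points) with 95% intervals (bars), by knockdown, on the probe that stands for each gene. Filled points are called at an adjusted p under 0.05, and only Lifr and Il6st in the Ino80 knockdown are filled. The intervals of Stat3 and Socs3 include 0 in all 4 knockdowns.

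Counted by non-overlap of the 2 arrays of each group instead, 2 of 5 members were apart from NT in Ino80, 3 in Ino80b, 2 in Ino80c and 4 in Ino80e. Over all genes the shares were 54%, 58.4%, 60.2% and 57.8%, so non-overlap with NT was common among genes of every kind. Only Il6st was apart from NT in all 4 knockdowns, lower each time.

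The upstream sequences of Socs3, Il6st and Lifr are given because Socs3 is a textbook STAT3 target and the other 2 are the members that fell. They are the 250 bases before the RefSeq start on GRCm38.p6, read in the direction of the gene. Socs3 lies on the minus strand at chr11:117969367-117969616, Il6st on the plus strand at chr13:112463820-112464069, and the first of 2 listed Lifr starts on the plus strand at chr15:7129322-7129571. They were searched for the STAT motif TTCNNNGAA, which reads the same on both strands, and capitals mark a match.
Socs3: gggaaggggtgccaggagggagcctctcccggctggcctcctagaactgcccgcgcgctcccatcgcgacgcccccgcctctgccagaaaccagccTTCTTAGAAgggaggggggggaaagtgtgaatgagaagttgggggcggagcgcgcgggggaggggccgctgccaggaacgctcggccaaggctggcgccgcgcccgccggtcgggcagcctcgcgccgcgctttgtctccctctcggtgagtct
Il6st: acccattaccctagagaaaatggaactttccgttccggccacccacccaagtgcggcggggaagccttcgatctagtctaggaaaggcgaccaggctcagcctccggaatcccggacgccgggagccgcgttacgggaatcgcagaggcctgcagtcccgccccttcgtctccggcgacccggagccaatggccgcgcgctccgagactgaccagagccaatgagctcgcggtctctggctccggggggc
Lifr: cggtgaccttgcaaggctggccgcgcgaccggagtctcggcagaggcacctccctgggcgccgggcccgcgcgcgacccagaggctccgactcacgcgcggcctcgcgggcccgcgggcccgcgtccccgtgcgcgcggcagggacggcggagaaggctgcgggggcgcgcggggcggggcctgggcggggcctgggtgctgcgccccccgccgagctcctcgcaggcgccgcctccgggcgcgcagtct

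Of the 6 windows of 300 bases that the table holds for the members (2 for Lifr and 1 each for the others), only that of Socs3 held the motif, as TTCTTAGAA starting 154 bases before the start. The motif stood in 2726 of 32851 such windows over all genes (8.3%). It stood in 1 of 14 windows of the STAT3 target genes described below, 1 of the 3 windows of the histone demethylase gene Kdm3a. Those 14 windows are not 1 per gene, since Klf5, Myc, Trib1 and Klf10 had no window and were not searched. A match is a run of letters and says nothing of binding in these cells.

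Around the 5 members, 55 further genes of the route were tested, in 7 lists. In the Ino80 knockdown 15 of them were called, 3 higher and 12 lower, beside 7.49% of all genes called higher and 4.76% called lower. In the Ino80b knockdown 9 were called, all lower, beside 3.74% of all genes higher and 2.67% lower. In the Ino80c knockdown 1 was higher and 8 lower, beside 4.69% and 1.59%. None was called in the Ino80e knockdown or within a slide. The median log2 fold change of the 55 genes was -0.04 in Ino80, -0.02 in Ino80b and 0.02 in Ino80c, under the median of all genes in each (0.17, 0.13 and 0.25). All 35 calls in these comparisons, the 2 receptor chains included, kept their direction under 4 other ways of correcting or scaling the arrays. The array median as the scale moves all genes of a comparison by the same amount, so a large difference could hardly turn there. Other probes of a gene, as given for Lifr above and for Jak2 and Stat5b below, were not among the 4. With the array median as the scale, Il6st (adjusted p = 0.0531), Jak2, Kdm3a, Socs1 and Stat5b in Ino80, Klf4 and Shc1 in Ino80b and Osm in Ino80c were no longer called, and no gene of these lists was called higher.

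Among ligands, 8 of 10 cytokine genes of the interleukin 6 family were tested. Osm, encoding oncostatin M, rose by 0.61 ± 0.13 (SE) in the Ino80c knockdown (adjusted p = 0.042), at a dim level of -4.51 and -4.45 in Ino80c against -5.18 and -5.01 in NT, and this call was lost under 3 of those 4 settings. Lif itself was not analysed here.

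Of 5 other receptor genes of the family, Il27ra fell by 1.10 ± 0.21 in the Ino80b knockdown (adjusted p = 0.0337), and no other was called. With normexp background correction Il27ra differed by -0.44 and the call was lost (adjusted p = 0.052), and in the authors' deposited table it differed by -0.67 and was called (adjusted p = 0.018). Osmr, the receptor chain for oncostatin M, was well above background in the Ino80e arrays only. The remaining receptors, Cntfr, Il6ra and Il11ra1, did not pass in any comparison, so among receptors the call in the Ino80 knockdown lay with Lifr and Il6st.

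Of the 3 other Janus kinase genes, Tyk2 fell by 0.64 ± 0.14 in Ino80 (adjusted p = 0.033) and by 0.86 ± 0.14 in Ino80c (adjusted p = 0.0271). Jak2 rose by 0.87 ± 0.22 in Ino80 (adjusted p = 0.0433), but its other probe gave -0.61. Of the 6 other STAT genes, Stat6 fell in 3 knockdowns, by 0.86 in Ino80, 0.99 in Ino80b and 1.01 in Ino80c (SE 0.15 each). Stat6 transmits interleukin 4 and 13 signals. Stat5a fell by 0.94 ± 0.14 in Ino80b (adjusted p = 0.0209). Stat5b rose by 1.20 ± 0.31 in Ino80 (adjusted p = 0.0482), while its other probe gave -0.25, so neither Jak2 nor Stat5b has a direction that both probes share.

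Of 14 negative regulators other than Socs3, 1 rose and 3 fell in the Ino80 knockdown, and 2 fell in each of Ino80b and Ino80c. Over all genes 7.49% were called higher and 4.76% lower in Ino80, and 2.67% lower in Ino80b and 1.59% in Ino80c. Socs2, a feedback inhibitor best known for damping growth hormone signals, stood at 1.47 and 1.37 in Ino80, 1.92 and 2.01 in Ino80b, 1.96 and 2.01 in Ino80c, 2.31 and 2.30 in Ino80e, and 2.68 and 2.79 in NT. It fell by 1.31, 0.78 and 0.75 in the first 3 (SE 0.12 each, adjusted p = 0.0026, 0.0204 and 0.0255), with no overlap with NT. Pias4, a SUMO ligase of the family of protein inhibitors of activated STAT, fell by 1.16 in Ino80, 1.09 in Ino80b and 1.15 in Ino80c (SE 0.21 each), and its relative Pias3, known to bind STAT3, fell by 0.94 ± 0.19 in Ino80 (adjusted p = 0.025). Socs1, another feedback inhibitor of JAKs, rose by 0.74 ± 0.18 in Ino80 (adjusted p = 0.0442). The inhibitors called were thus mostly lower, with Socs1 as the exception.

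Of 5 adaptor genes that link gp130 to the ERK branch, Gab1, a docking protein, fell by 0.77 ± 0.18 in Ino80 (adjusted p = 0.0391). Shc1, another adaptor, fell by 0.72 ± 0.16 in Ino80 (adjusted p = 0.0292) and by 0.81 ± 0.16 in Ino80b (adjusted p = 0.0342). Ptpn11, the SHP2 phosphatase that gp130 recruits, differed by 0.76 in Ino80 and 0.86 in Ino80b without passing (adjusted p = 0.0604 and 0.0577).

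STAT3 target genes known from ES cells numbered 14 tested of 15. In the Ino80 knockdown 5 fell and none rose, in Ino80b 3 fell and none rose, in Ino80c 4 fell and none rose, and in Ino80e none was called. Beside these stand 4.76%, 2.67%, 1.59% and 0% of all genes called lower. The median of the list was -0.46 in Ino80, -0.19 in Ino80b, -0.03 in Ino80c and 0.03 in Ino80e, each under the median of all genes. Those that fell in at least 1 knockdown were Tfcp2l1, Klf4, Klf5, Gbx2, Kdm3a and Pim3, and Myc, Pim1, Bcl3, Junb, Ier3, Trib1, Klf10 and Mcl1 were not called in any.

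Tfcp2l1, a transcription factor through which LIF sustains self-renewal, stood at -1.87 and -1.66 in Ino80, -1.23 and -1.28 in Ino80b, -0.82 and -0.53 in Ino80c, 0.40 and 0.41 in Ino80e, and 0.68 and 0.94 in NT. Every knockdown array lay under both NT arrays, least so in Ino80e. It fell by 2.58 in Ino80, 2.07 in Ino80b and 1.49 in Ino80c (SE 0.16 each, adjusted p = 0.0015, 0.0085 and 0.0175), and its second probe gave -2.33, -1.65 and -1.45.

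Klf4, a naive-state factor induced by STAT3, stood at 4.17 and 4.77 in Ino80, 4.57 and 4.70 in Ino80b, 4.55 and 4.53 in Ino80c, 5.65 and 5.74 in Ino80e, and 5.63 and 5.73 in NT. The first 3 knockdowns lay apart from NT, and Ino80e overlapped it. Klf4 fell by 1.21, 1.05 and 1.14 in those 3 (SE 0.20 each). Klf5, its relative, fell by 1.16, 1.15 and 1.06 (SE 0.18 each), and its second probe gave -0.14, -0.67 and -0.22.

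Gbx2, a homeobox gene that can sustain ES cells without LIF, stood at 2.30 and 2.11 in Ino80, 2.87 and 3.03 in Ino80b, 3.37 and 3.46 in Ino80c, 3.26 and 3.19 in Ino80e, and 3.39 and 3.39 in NT. It fell by 1.18 ± 0.13 in Ino80 (adjusted p = 0.0043) and was not called elsewhere. Kdm3a, the demethylase named above, fell by 0.57 ± 0.13 in Ino80 (adjusted p = 0.0378), and the kinase gene Pim3 fell by 0.97 ± 0.19 in Ino80c (adjusted p = 0.035). Myc differed by -0.56 in Ino80 and 0.30 in Ino80c without passing (adjusted p = 0.1 and 0.313).

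**Figure D5:**
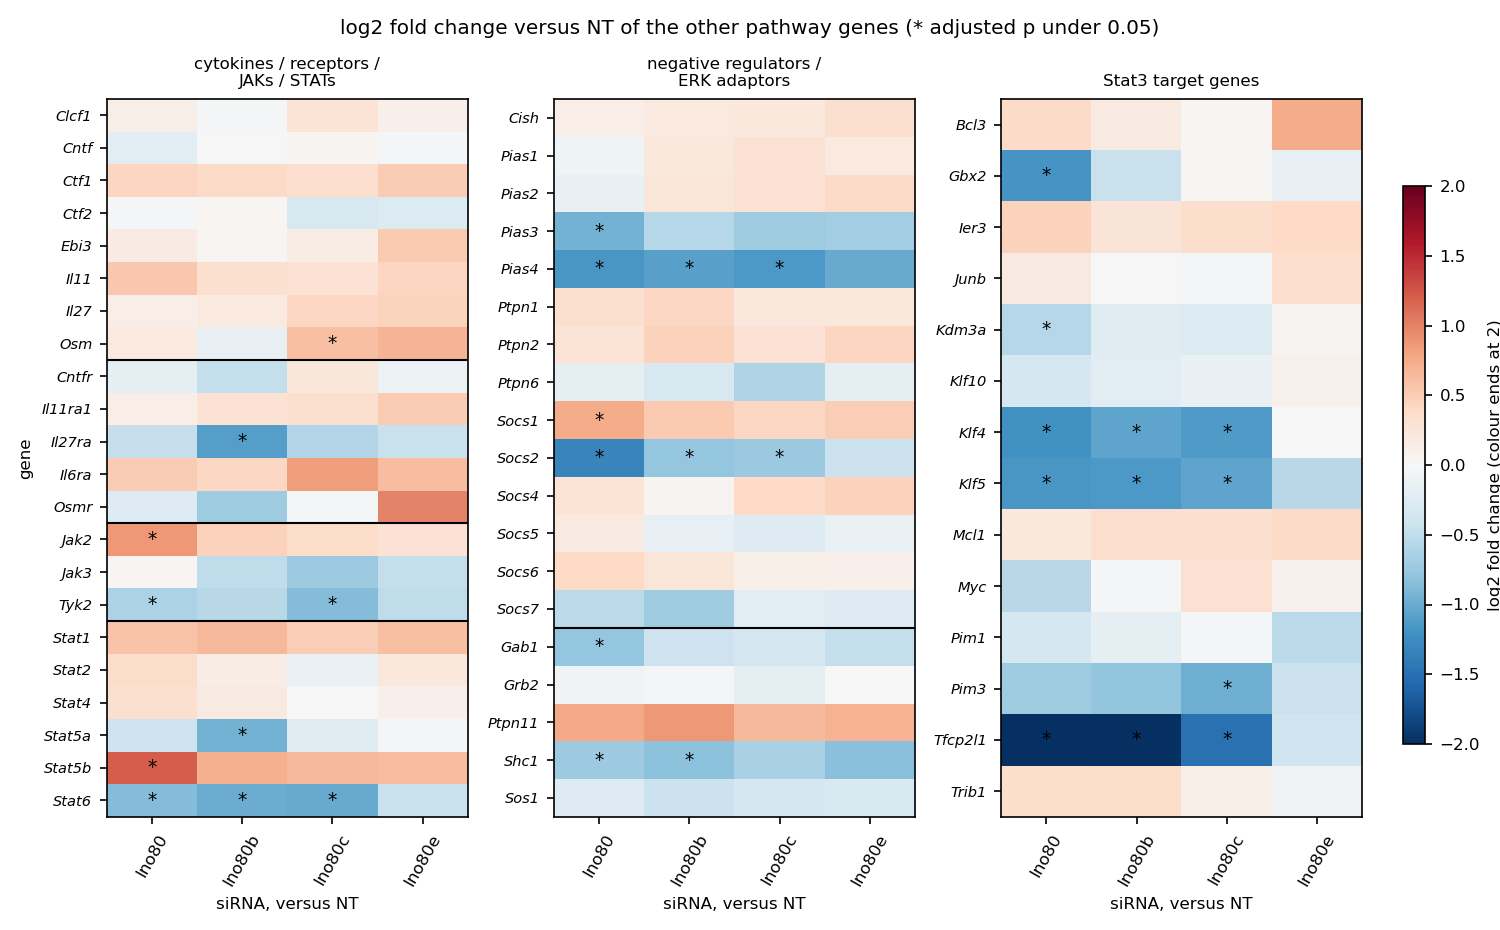
Log2 fold change versus NT of the 55 other genes of the route, 1 row per gene and 1 column per knockdown, with colour ending at 2 in either direction and an asterisk at an adjusted p under 0.05. Tfcp2l1, Klf4, Klf5, Socs2, Pias4 and Stat6 carry an asterisk in Ino80, Ino80b and Ino80c, and no gene carries one in Ino80e. Osmr is drawn although it was well above background only in Ino80e.

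Across the 10 arrays, the levels of the members, each on the probe that stands for its gene, followed each other unevenly. Jak1 and Socs3 had a Pearson r of 0.88 and Lifr and Il6st one of 0.59, while Stat3 had an r between -0.36 and -0.28 with each of the other 4. These are descriptions over arrays that share slides and groups. The other Jak1 probe, which differed from NT by -0.17 in Ino80c and -0.19 in Ino80e, was not used for any r. The r of 0.88 therefore holds only for the Jak1 probe that was chosen through the Ino80c and Ino80e arrays, where it lay high. Among 17434 genes well above background on all arrays, the levels most like Lifr were those of Polr2b (r = 0.99), Enox1 (0.98) and D16Ertd472e (0.97), and those most like Il6st were Syk (0.99), Wdr33 (0.98) and Coq6 (0.98). Jak1 was closest to Herc4 (0.99), Ggps1 (0.99) and Sirt3 (0.98), and Stat3 to Nek4 (0.93), Txlna (0.91) and Tfg (0.90). Socs3 was closest to C330018D20Rik (0.97), 1110067I12Rik (0.96) and a transcript without a gene name. None of these nearest genes was another member.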

How the data were processed

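RNA of 10 samples was hybridised to Agilent 4x44K arrays. Feature Extraction 9.5.3.1 read the green channel, per the file headers, whereas the labels name the dye Cy5. The deposited scanner files give intensity as a processed signal, which had its background subtracted and was left unscaled across arrays, as those headers record. A value table deposited by the authors gives log2 values: every column is the log2 mean signal shifted by a constant of unknown origin, with medians of 6.76 to 6.87.

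Control spots and flagged outliers were left out, spots of a probe were averaged, and log2 signal minus the 75th percentile of the array (666 to 940 intensity units) was taken. A probe was kept where any group had it well above background on both arrays, no probe was saturated, and the probe of highest mean level stands for a gene. Of 41174 probes, 22951 were named through RefSeq (GRCm38.p6) and 18223 by the array design. All 10 arrays were fitted with limma 3.58.1 (R 4.3.3, data.table version 1.17.8) with group as the only term. P-values are two-sided and adjusted by Benjamini-Hochberg over 20663 genes, called under 0.05. The members and the gene lists were chosen with earlier results of these data known. A gene of the pathway lists is not reported here and is not in the counts. Named are all members and their probes, genes of the pathway lists, marker genes, and the 3 genes with the highest r with each member. The marker genes named were picked after their values were seen. Replicate numbers were not used as a block, since no source used here says that they mark shared cultures or days. Tested on simulated data for Ino80 versus NT (20663 genes, 200 changed), the fit recovered 35% of changes of 1 and 76% of changes of 2 on the log2 scale. Far more genes, 2531, were called in the real comparison. Its cutoff on the unadjusted p-value was therefore less strict, and the 35% and 76% do not carry over to it.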

Additional observations from a re-analysis of the deposited data

How the results depend on the processing

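The number of members called in the Ino80 knockdown, 2 in the report, was 0 without the filter on dim probes, with weighted arrays and in fits of the 4 arrays compared, and 1 with the array median as the scale (Il6st lost, adjusted p = 0.0531) or the mean of all probes. Leaving out 1 array gave 0 to 2, with 0 without NT replicate 2 or Ino80 replicate 2. Of 21 alternatives, Lifr was called in 13 (-0.79 to -0.30, adjusted p 0.006 to 0.302) and Il6st in 12 (-0.78 to -0.52, adjusted p 0.0073 to 0.23). On probe 4, an alternative added after seeing the data, Lifr in Ino80 versus NT turned to 0.0525. In the other comparisons with NT the count of members, 0 in the report, became 1 in Ino80e with normexp background correction, and 2 in Ino80b, 1 in Ino80c and 1 in Ino80e in the authors' deposited table. The other pathway genes called in Ino80, Ino80b, Ino80c and Ino80e, 15, 9, 9 and 0 in the report, moved more. With normexp they were 17 in Ino80b, 15 in Ino80c and 18 in Ino80e, and 1 for Ino80 against Ino80b and 2 for Ino80c against Ino80e. In the deposited table they were 18, 14 and 7 in the same 3, and 2 for Ino80c against Ino80e. Without the filter they were 7 in Ino80, 1 in Ino80b and 1 in Ino80c, with array weights 5 in Ino80, 1 in Ino80c and 2 for Ino80c against Ino80e, and with only the 4 arrays compared 0 in each. With probes well above background on all arrays they were 14 in Ino80b, 3 in Ino80e and 1 for Ino80c against Ino80e. With a trend and robust prior they were 17 in Ino80b, 7 in Ino80e, 1 for Ino80 against Ino80b and 2 for Ino80c against Ino80e. The labels do not say whether equal replicate numbers pair samples, and the replicate differences of 2 groups correlated between 0.00 and 0.32, with 2 of 10 pairs under 0.1, both with Ino80c. With the replicate number as a block they were 16 in Ino80b, 6 in Ino80e and 2 for Ino80c against Ino80e, and no call of a member changed. Leaving out 1 array gave 4 to 14 in Ino80 (4 without Ino80 replicate 2 and 4 without NT replicate 2), 0 to 12 in Ino80b (0 without either Ino80b array, 1 without NT replicate 2), 0 to 13 in Ino80c (0 without either Ino80c array or NT replicate 2), 0 to 3 in Ino80e (3 without NT replicate 1) and 0 within slides. Without either array of a knockdown not compared, they were 8 in Ino80, 3 (Ino80e) or 6 (Ino80c) in Ino80b, and 2 (Ino80b) or 1 (Ino80e) in Ino80c. All genes called in the report were 1547 higher and 984 lower in Ino80, 773 and 552 in Ino80b, and 969 and 328 in Ino80c. With the array median as the scale these were 598 and 938, 321 and 366, and 178 and 353, and in the deposited table there were 886 and 1447 in Ino80b, 619 and 1600 in Ino80c, and 236 and 867 in Ino80e (0 in the report). With normexp they were 3218 and 983 in Ino80c and 4335 and 767 in Ino80e. For each the cause was not tested.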
